A study of Mus musculus with 4 samples.

Results

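Trophoblast genes and the prolactin-family gene Prl2c2 were examined in mouse haploid embryonic stem cells (haESCs). The genes were chosen by symbol: Cdx2, Elf5, Hand1, Tfap2c, Tead4, Gata3, Krt8, Krt18, Krt7 and Prl2c2. They are 10 of the 23235 symbols in the expression tables, and all 10 were present. The choice was made with earlier results of these data known, and the paper already lists Prl2c2 as up-regulated in the treated cells of its RNA-seq. The cells were of HG165, an androgenetic line with a single paternal genome made from C57BL/6 mice, and all libraries came from this 1 line. Of the 4 libraries, 2 were from cells given the solvent DMSO and 2 from cells given RDF, which combines Forskolin, an activator of adenylate cyclase, with Repsox and DMH1, which block TGF-β and BMP signalling. The length of treatment and the doses for these libraries are not given in the sources used here, nor is whether haploid cells were sorted first. The labels give growth on feeder cells, whereas the study's methods say that most experiments did without them, the exceptions being assays of haploid share, morphology and alkaline phosphatase. RNA-seq is not among those exceptions, so the sources do not settle whether these libraries were grown on feeder cells. Nothing says whether the 2 libraries of a condition came from separate cultures, so p-values measure the spread between these libraries, which may be technical.

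The trophoblast is the outer cell layer of the blastocyst and gives rise to the placenta. Embryonic stem cells come from the inner cell mass and normally keep the trophoblast programme low, with BMP signalling known to favour trophoblast genes in pluripotent cells under some conditions. Tead4, with its co-activator Yap1, acts upstream of Cdx2 and Gata3 in the outer cells, Cdx2, Elf5 and Tfap2c maintain trophoblast stem cells, and Hand1 acts in the formation of trophoblast giant cells. Krt7, Krt8 and Krt18 encode keratins of simple epithelia, including trophoblast. Prl2c2 encodes proliferin, a secreted hormone of the prolactin family made by trophoblast giant cells and also by growing fibroblast lines.

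Levels are given in FPKM, which scales fragments to transcript length and to the total mapped, so that they can be set beside each other across genes. The libraries differed little in total, with sums of 718064 to 764461 FPKM, and steps in the lowest values put their depth at about 9540000 to 12420000 fragments. Pearson's r of log2(FPKM + 1) across genes was 0.986 between the DMSO libraries, 0.990 between the RDF libraries and 0.975 to 0.980 between conditions. The embryonic stem cell label was checked with 8 markers, which were all expressed, led by Dppa5a at 2839 to 5539 FPKM, Pou5f1 (the gene for Oct4) at 939 to 1285 FPKM and Tdgf1 at 292 to 509 FPKM. Those 8 markers summed to 7748 and 7808 FPKM in DMSO and to 4547 and 5017 FPKM in RDF, and by the test described further on 2 of the 8 (Sox2 and Zfp42) were called higher, against 13.3% of all genes tested, and 4 (Dppa5a, Pou5f1, Tdgf1 and Utf1) lower, against 8.28%. Both counts were lower without RDF replicate 1, and likewise without RDF replicate 2, as were those over all genes. The count called lower also fell without DMSO replicate 1, and the count called higher without DMSO replicate 2. Dppa5a made up most of these sums, with means of 5516 FPKM in DMSO and 3035 FPKM in RDF. Of the 2 not called, Esrrb had both RDF values above both DMSO values and Nanog overlapped. In bulk libraries, fewer cells of a type and less RNA per cell cannot be told apart, and neither was tested.

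The levels of the 10 genes spanned a wide range, and their order was nearly the same in both conditions. In DMSO the order of the means was Krt18, Krt8, Tfap2c, Tead4, Krt7, Hand1, Prl2c2, Gata3, Cdx2 and Elf5, from 46.4 FPKM for Krt18 down to under 1 FPKM for the last 3. In RDF, Tfap2c stood above Krt8 and the order was otherwise the same, from 51.5 FPKM for Krt18 down to under 1 FPKM for the last 2. The ranges of neighbours in this order overlapped only for Prl2c2 with Gata3 and for Cdx2 with Elf5, in both conditions. Among the 11733 genes averaging 1 FPKM or more over the 4 libraries, Krt18 lay above 82.8% in DMSO, Tfap2c above 72.5% and Hand1 above 25.8%. Symbols under that filter were left out of this ranking. Gata3 averaged 0.814 FPKM in DMSO, under the filter, so its place above 0.563% of these genes was set by the filter.

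**Figure D1:**
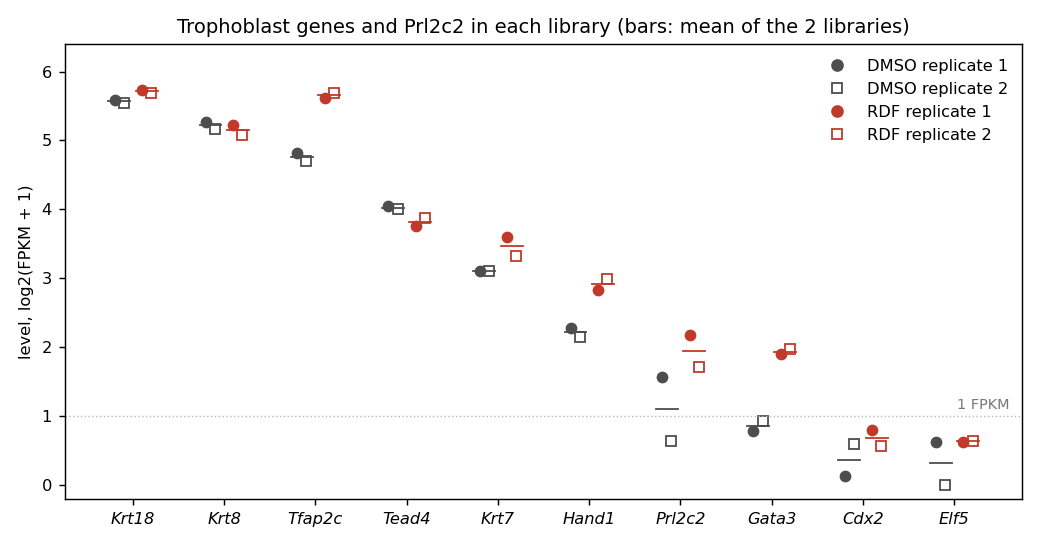
Level of each gene as log2(FPKM + 1) in the 2 DMSO libraries (grey) and the 2 RDF libraries (red), with circles for replicate 1, squares for replicate 2 and short bars for the mean of the plotted values. Tfap2c, Hand1 and Gata3 have both red symbols well above both grey ones, Krt8 overlaps, and Cdx2 and Elf5 stay under 1 FPKM in every library.

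The question addressed was how RDF changed the transcriptome of haESCs. Of the 10 genes, 8 averaged 1 FPKM or more over the 4 libraries and entered the test, limma's on log2(FPKM + 1) with adjustment over all 11733 such genes. Of these 8, Tfap2c, Gata3 and Hand1 rose with an adjusted p under 0.05, against 13.3% of all genes tested, and 0 fell, against 8.28% of all genes tested (21.6% in either direction). Over all genes tested, 1561 rose and 972 fell, and this split was 1333 and 1181 with median-ratio scaling and 1247 and 1089 with quantile normalization. At an unadjusted p under 0.05 from limma, 6 of the 8 were higher, against 22.5% of all genes tested, and 1, Tead4, was lower, against 15.5%. Both RDF values were above both DMSO values in 6 of the 8, which held for 37.1% of all genes tested, and below them in 1, which held for 28.5%. Gata3 passed the filter on low values only through its RDF level. Prl2c2, counted among the 6 in both cases, had been named by the paper as up-regulated in these data. These counts therefore describe the 8 genes and are not a test of them as a group.

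Tfap2c, which encodes the transcription factor AP-2γ, is active in trophoblast stem cells and also in germ cell precursors. It lies on chromosome 2 from 172375093 to 172384122 (NCBIM37, the assembly mm9). It had 27.2 and 25.1 FPKM in DMSO replicates 1 and 2 and 48.3 and 50.7 FPKM in RDF replicates 1 and 2. Both RDF libraries were far above both DMSO libraries, whose values differed by only 1.08-fold. The mean rose from 26.1 ± 1.45 to 49.5 ± 1.73 FPKM (SD, n = 2 each). On the log2(FPKM + 1) scale the difference was 0.90 ± 0.065 (standard error), with an adjusted p of 0.00120 from limma. This call was kept under each of the 10 alternatives of processing tried, with log2 fold changes of 0.84 to 0.95. A stretch elsewhere in the genome matched 33.0% of its transcript at 95% identity or more.

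Gata3 encodes a zinc-finger transcription factor that specifies trophoblast beside Cdx2 and also acts in many later tissues. It lies on chromosome 2 from 9778705 to 9811661 and overlaps 3 other annotated genes, 4930412O13Rik, 9230102O04Rik and Gm13256. Its values were 0.729 and 0.898 FPKM in the DMSO libraries and 2.73 and 2.93 FPKM in the RDF libraries. The groups were well apart, at a low level: the estimated depth corresponds to about 22.4 and 32.3 fragments in the DMSO libraries and to 109 and 107 in the RDF libraries. The ratio of the mean FPKM was 3.48, and the log2 fold change of FPKM + 1 was 1.08 ± 0.113 (standard error), with an adjusted p of 0.00320 from limma. With a pseudocount of 0.1 in place of 1, the log2 fold change was 1.69. With the pseudocount of 1, only 0.631% of all genes tested had a log2 fold change over 1, and Gata3 was the only one of the 8 to do so. With the pseudocount of 0.1, 155 of the 11733 genes did, and Prl2c2 (1.34) was among them. Gata3 entered the test only through its RDF level.

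Hand1 encodes a basic helix-loop-helix factor of trophoblast giant cells, extraembryonic mesoderm and heart. It lies on chromosome 11 from 57642207 to 57646320. The DMSO libraries had 3.88 and 3.43 FPKM and the RDF libraries 6.12 and 6.98 FPKM, without overlap. The mean rose from 3.65 ± 0.319 to 6.55 ± 0.605 FPKM (SD, n = 2 each). The log2 fold change was 0.70 ± 0.103 (standard error), with an adjusted p of 0.00821 from limma. Without RDF replicate 2 the log2 fold change was 0.62 and the adjusted p from limma was 0.0708.

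Tead4 encodes the TEA-domain factor that, with Yap1, stands upstream of Cdx2 in the outer cells of the embryo. It lies on chromosome 6 from 128174306 to 128250841, and it was not called in either direction. It had 15.5 and 15.0 FPKM in DMSO and 12.6 and 13.6 FPKM in RDF, so that both RDF values were below both DMSO values by a small margin. Its log2 fold change was -0.20 (95% interval -0.38 to -0.03, adjusted p = 0.0918 from limma). It passed the threshold in 1 of the 10 alternatives, with quantile normalization (adjusted p = 0.0499 from limma).

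Cdx2, the homeobox gene that opens the trophoblast programme, and Elf5, the Ets-family gene that keeps it on in trophoblast stem cells, were under 1 FPKM in every library. Cdx2 lies on chromosome 5 from 148112381 to 148118846 and had 0.0952 and 0.507 FPKM in DMSO and 0.735 and 0.486 FPKM in RDF. The groups overlapped, and the estimated depth puts only about 2.05 to 20.6 fragments behind these values. Elf5 lies on chromosome 2 from 103251845 to 103291146 and had 0.550 FPKM in DMSO replicate 1, 0.542 and 0.565 FPKM in the RDF libraries, and was listed at 0 in DMSO replicate 2. The other 3 libraries held about 17.1 to 22.0 fragments of Elf5, and a value listed at 0 can be a failed estimate. In DMSO replicate 2, 4 symbols were listed at 0 there alone while holding at least 10 estimated fragments in each of the other 3 libraries: Elf5 and the small nucleolar RNAs Snora23, Snora31 and Snora34. With no filter on low values, the adjusted p from limma was 0.322 for Cdx2 and 0.411 for Elf5, each with a log2 fold change of 0.32. For Elf5 this fold change rests on the 0 in DMSO replicate 2, as its values in the other 3 libraries were nearly equal.

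Krt8, Krt18 and Krt7, the simple-epithelial keratins, did not pass the test in either direction. Krt8, which encodes a type II keratin, had 37.5 and 35.1 FPKM in DMSO and 36.3 and 32.9 FPKM in RDF. These values overlapped, with a log2 fold change of -0.06 (95% interval -0.24 to 0.11, adjusted p = 0.544 from limma). Krt18, the type I partner with which the Krt8 protein forms filaments, had 47.1 and 45.8 FPKM in DMSO and 52.1 and 50.8 FPKM in RDF. Its RDF values were above its DMSO values by a small margin, with a log2 fold change of 0.15 (95% interval 0.02 to 0.28, adjusted p = 0.103 from limma). The pair lies close together on chromosome 15, Krt8 from 101827142 to 101834773 and Krt18 from 101858647 to 101862457, 23873 bases apart. A stretch elsewhere in the genome matched 96.0% of the Krt8 transcript at 95% identity or more, and how reads that fit both were assigned is not stated.

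Krt7, a type II keratin of simple epithelia and trophoblast, lies on the same chromosome from 101241474 to 101260744. It had 7.63 and 7.60 FPKM in DMSO and 11.1 and 9.04 FPKM in RDF. Both RDF values were above both DMSO values, and the RDF libraries differed from each other by 1.23-fold. The log2 fold change was 0.36 (95% interval 0.10 to 0.61, adjusted p = 0.0596 from limma). The intervals given here and above are not adjusted for the number of genes tested.

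Several other keratins fell. Of 51 keratin genes in the tables, 15 were at 0 in all 4 libraries and 10, among them Krt7, Krt8 and Krt18, averaged 1 FPKM or more. Of these 10, limma called 5 lower, against 8.28% of all genes tested, and 0 higher, against 13.3%. At an unadjusted p under 0.05 from limma, 6 were lower, against 15.5% of all genes tested, and 2 higher, against 22.5%. Krt16, one of the 5, passed the filter on low values only through its DMSO level, as did Krt20, which was not called. Fewer of the 10 were called lower without RDF replicate 1, and likewise without RDF replicate 2, as was so over all genes. The median log2 fold change of the 10 was -0.41, against 0.03 over all genes tested. Krt17, a type I keratin of basal and stressed epithelium, had 47.9 and 45.9 FPKM in DMSO and 11.6 and 9.99 FPKM in RDF, with a log2 fold change of -2.02 ± 0.082 (standard error) and an adjusted p of 0.000246 from limma. Krt42, another type I keratin, had 17.9 and 19.4 FPKM in DMSO and 4.73 and 5.16 FPKM in RDF, with a log2 fold change of -1.72 and an adjusted p of 0.000332 from limma.

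Krt19, a type I keratin of simple epithelia and trophoblast and the most abundant keratin in these libraries, had 98.1 and 101 FPKM in DMSO and 77.5 and 71.9 FPKM in RDF. Both RDF values were lower, with a log2 fold change of -0.41 (adjusted p = 0.00788 from limma), and without RDF replicate 2 it was -0.36 (adjusted p = 0.0678 from limma). Krt13 and Krt16, keratins of stratified epithelia, also fell (adjusted p = 0.00421 and 0.0131 from limma). The ratio of the RDF mean to the DMSO mean was 1.11 for Krt18, 0.955 for Krt8 and 0.230 for Krt17. Whether the changes of these keratins differ from each other was not tested.

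**Figure D2:**
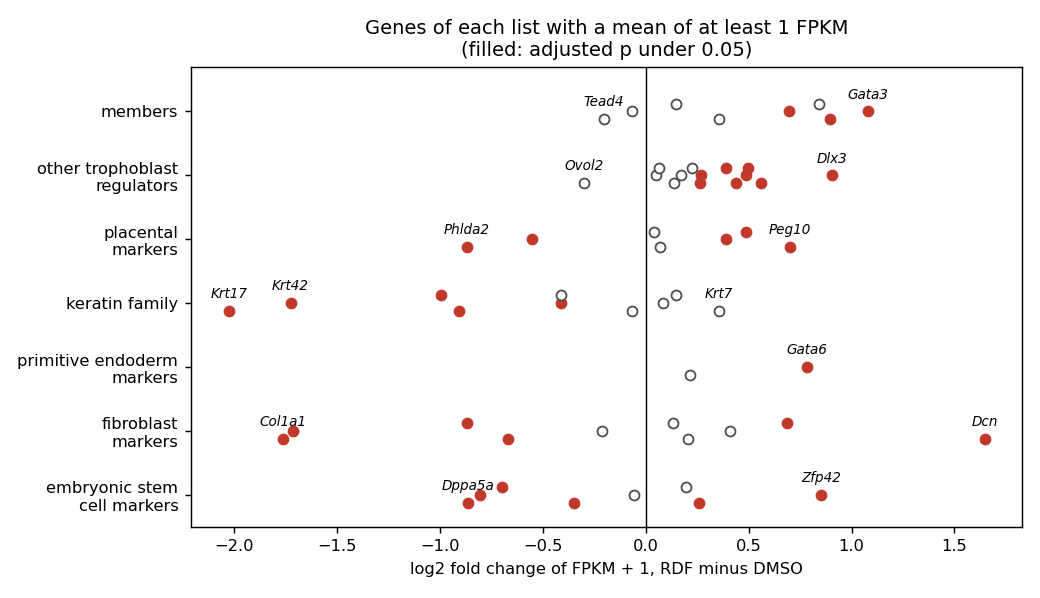
Log2 fold change of FPKM + 1, RDF minus DMSO, for each gene averaging 1 FPKM or more in 7 gene lists, 1 point per gene, filled red where the adjusted p from limma is under 0.05. Regulators of trophoblast lie mostly to the right of 0, the keratins Krt17 and Krt42 lie far to the left at -2.02 and -1.72, and the fibroblast markers spread from -1.76 for Col1a1 to 1.65 for Dcn.

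A wider list of 15 trophoblast regulators was set beside the 10 genes. Like the other lists, it was chosen with earlier results of these data known. Counts within the lists therefore describe their genes and do not test a list as a group. Of the 14 averaging 1 FPKM or more, limma called 8 higher (57.1%, against 13.3% of all genes tested) and 0 lower (against 8.28%). At an unadjusted p under 0.05 from limma, 8 were higher, against 22.5% of all genes tested, and 1 lower, against 15.5%. The median log2 fold change of the 14 was 0.27, against 0.03 over all genes tested. Those called were Dlx3, Gata2, Ets2, Sox21, Fgfr2, Ascl2, Yap1 and Id2, with adjusted p between 0.00332 and 0.0409 from limma, and Fgfr2 passed the filter only through its RDF level. With no filter on low values the count was 4, and over all genes 942 of 18012 were then called higher. The count also fell with any 1 library left out, as did the calls higher over all genes.

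Dlx3, a homeobox gene that the placenta needs, had the largest change of these, from 2.39 and 2.48 FPKM in DMSO to 5.14 and 5.74 FPKM in RDF (log2 fold change 0.91, standard error 0.097, adjusted p = 0.00332 from limma). Gata2, the relative of Gata3 that acts with it on placental hormone genes, had 10.9 and 10.5 FPKM in DMSO and 15.1 and 17.4 FPKM in RDF (log2 fold change 0.56, adjusted p = 0.00923 from limma). By the mean over the 4 libraries the most abundant regulators were Klf5, Id2 and Esx1, and in both RDF libraries Yap1 (42.0 and 42.8 FPKM) lay above Esx1. Klf5, which acts in both trophoblast and pluripotent cells, had 111 to 119 FPKM in DMSO and 113 to 125 FPKM in RDF (95% interval of the log2 fold change -0.12 to 0.22). Esx1, a placental homeobox gene on the X chromosome, had 36.5 to 41.6 FPKM in DMSO and 40.9 FPKM in both RDF libraries (95% interval -0.12 to 0.25). Id2, an inhibitor of basic helix-loop-helix factors that trophoblast stem cells express, rose from 67.3 and 67.9 FPKM to 86.2 and 77.0 FPKM (log2 fold change 0.27, adjusted p = 0.0399 from limma), a call kept in 3 of the 10 alternatives.

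Some of the listed markers of differentiated trophoblast were not detected, and others were low or well expressed. Tpbpa of the spongiotrophoblast, Prl3d1 and Prl3b1, the placental lactogens, and Ctsq of the labyrinth were listed at 0 in all 4 libraries. Plac1 reached at most 0.497 FPKM, Syna 0.183 FPKM and Synb 0.0363 FPKM in any library. Of 15 placental markers, 14 were in the tables and 7 averaged 1 FPKM or more. Of these 7, limma called 3 higher (Peg10, Rhox6 and Wnt7b) and 2 lower (Phlda2 and Cdh3), against 13.3% and 8.28% of all genes tested. Without RDF replicate 1, and likewise without RDF replicate 2, fewer of the 7 were called in each direction, as was so over all genes. Peg10, a paternally expressed imprinted gene of the placenta, had 96.6 and 101 FPKM in DMSO and 157 and 166 FPKM in RDF (log2 fold change 0.70, adjusted p = 0.00173 from limma). Phlda2, a maternally expressed imprinted gene that limits placental growth, had 35.9 and 38.9 FPKM in DMSO and 20.8 and 19.3 FPKM in RDF (log2 fold change -0.87, adjusted p = 0.00159 from limma). Lgals3, which encodes galectin-3, had 37.4 to 42.7 FPKM with overlapping groups.

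Of the 26 prolactin-family genes in the tables, 20 were at 0 in all 4 libraries. The 6 others were Prl2c2, Prl2c3, Prl2c4 and Prl2c5, and Prl4a1 and Prl8a9 with 1 value above 0 each, 0.101 and 0.104 FPKM. Expression in this family was thus that of the Prl2c genes, the proliferins, which lie together on chromosome 13: Prl2c3 from 12883089 to 12892345, Prl2c2 from 13088393 to 13097659 and Prl2c5 from 13274982 to 13284190. Prl2c4 is not in the annotation used for positions, and the RefSeq gene table for the assembly GRCm38.p6 gives its name as a synonym of Prl2c3.

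Prl2c2 and Prl2c3 are almost the same sequence, which bears on how their fragments could be told apart. Their transcripts of 850 bases differ at 4 positions. Over the coding sequence of 675 bases they differ at 3 positions, written with the Prl2c2 base first and counted from the first base of the start codon: T14C, C200A and T319G. Of the 50-base windows of the Prl2c2 transcript, 88.5% occur unchanged in another gene's transcript, in Prl2c3, Prl2c5 or Prl2c1, and 92 of its 801 windows are its own. Of the windows of the Prl2c3 transcript, 79.15% occur in Prl2c2, Prl2c5 or Prl2c1, and 167 of 801 are its own, so its values share this limit. For Cdx2, Elf5, Hand1, Tfap2c, Gata3, Krt8, Krt18 and Krt7 the share was 0% and for Tead4 it was 0.330%. The stretches around the 3 coding differences are shown, from the protein-coding transcripts of the NCBIM37 annotation and 5′ to 3′ on the coding strand, with the differing base in capitals.
Prl2c2 bases 1 to 44: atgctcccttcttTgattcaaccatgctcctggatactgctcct
Prl2c3 bases 1 to 44: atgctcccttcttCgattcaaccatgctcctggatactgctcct
Prl2c2 bases 170 to 230: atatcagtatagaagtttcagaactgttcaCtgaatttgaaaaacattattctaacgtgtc
Prl2c3 bases 170 to 230: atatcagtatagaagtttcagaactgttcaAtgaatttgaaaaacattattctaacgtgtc
Prl2c2 bases 289 to 349: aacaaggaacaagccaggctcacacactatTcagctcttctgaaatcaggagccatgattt
Prl2c3 bases 289 to 349: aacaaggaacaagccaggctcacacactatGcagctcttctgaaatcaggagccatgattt

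Prl2c2 itself had 1.95 and 0.554 FPKM in DMSO replicates 1 and 2 and 3.52 and 2.27 FPKM in RDF replicates 1 and 2. Both RDF values were above both DMSO values, and the DMSO libraries differed from each other by 3.52-fold. The estimated depth corresponds to about 15.8 and 5.28 fragments in the DMSO libraries and to 37.2 and 21.8 in the RDF libraries. The DMSO mean was 1.25 ± 0.988 FPKM and the RDF mean 2.89 ± 0.891 FPKM (SD, n = 2 each). The ratio of these means was 2.31, and the paper counted genes with a fold change over 2, naming no test. On the log2(FPKM + 1) scale, which understates changes at low levels, the log2 fold change was 0.84 (95% interval 0.08 to 1.61, adjusted p = 0.106 from limma). The value moved with the DMSO library left out: the log2 fold change was 1.31 without DMSO replicate 1 (adjusted p = 0.0109 from limma) and 0.38 without DMSO replicate 2 (adjusted p = 0.249 from limma).

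Prl2c3 had 1.77 and 1.89 FPKM in DMSO and 4.58 and 5.45 FPKM in RDF. Its DMSO libraries were close to each other, and its RDF values were far above them. Its log2 fold change was 1.08 ± 0.111 (standard error), with an adjusted p of 0.00301 from limma, and it had a ratio of the mean FPKM of 2.74. Prl2c5 had 0 and 0.169 FPKM in DMSO and 0.148 and 0.656 FPKM in RDF. Prl2c4 had 0.899 FPKM in RDF replicate 1 and from 1.66e-05 to 9.83e-05 FPKM in the other 3 libraries. The share of Prl2c2 in the sum of the 4 genes was 52.5% and 21.2% in the DMSO libraries and 38.5% and 27.1% in the RDF libraries, so that it differed as much between the 2 DMSO libraries as between any other pair.

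Summing the 4 genes removes the division among them. This sum, chosen after the single values had been seen, was 3.72 and 2.61 FPKM in DMSO and 9.15 and 8.37 FPKM in RDF. The DMSO libraries then differed by 1.42-fold and the RDF libraries by 1.09-fold, and both RDF values were above both DMSO values by a wide margin. The mean rose from 3.17 ± 0.784 to 8.76 ± 0.551 FPKM (SD, n = 2 each), a ratio of 2.77. In a fit with the sum as 1 row the log2 fold change was 1.24 (95% interval 0.90 to 1.58, standard error 0.140, adjusted p = 0.00389 from limma).

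**Figure D3:**
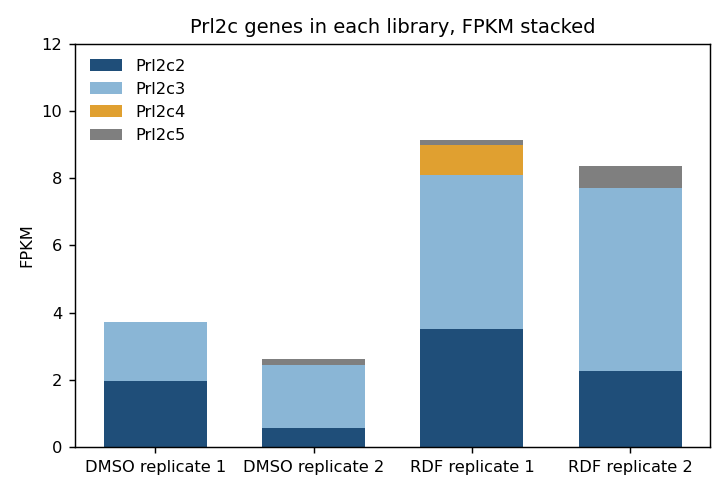
FPKM of Prl2c2, Prl2c3, Prl2c4 and Prl2c5 stacked for each of the 4 libraries, so that the full height of a bar is their sum. The dark part, Prl2c2, is uneven between DMSO replicates 1 and 2 (1.95 and 0.554 FPKM), whereas the full bars stand at 3.72 and 2.61 FPKM in DMSO and at 9.15 and 8.37 FPKM in RDF.

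**Figure D4:**
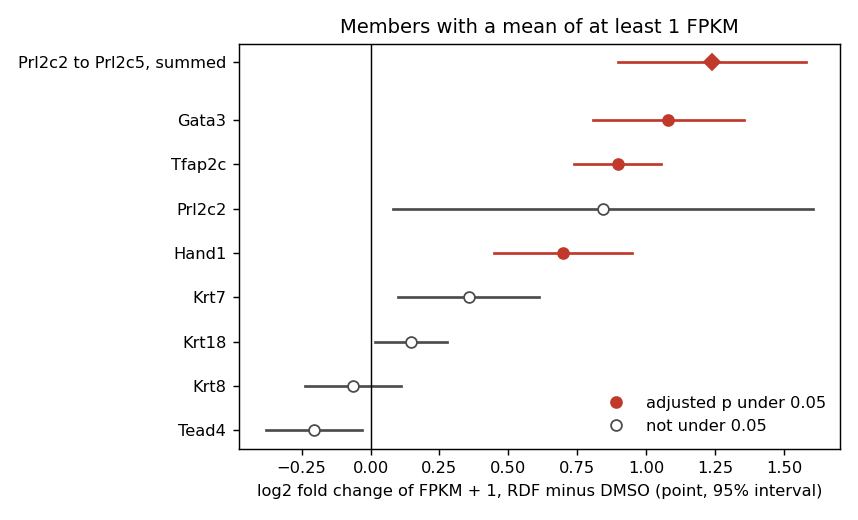
Log2 fold change of FPKM + 1, RDF minus DMSO, for the 8 genes that averaged 1 FPKM or more and for the sum of the 4 Prl2c genes, with the 95% interval from limma as a line and red where the adjusted p is under 0.05. The interval of Prl2c2 alone runs from 0.08 to 1.61 and that of the sum from 0.90 to 1.58, whereas Krt8 and Tead4 lie at -0.06 and -0.20.

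By the distance between centred log2(FPKM + 1) values over the 4 libraries, the 3 genes most like Prl2c2 were AI506816, Tmem200b and Gata6, at distances of 0.33, 0.36 and 0.37. Each had, like Prl2c2, its lowest value in DMSO replicate 2, which picking them by likeness to Prl2c2 favours. For Gata6 that value was 1.45 FPKM, beside 2.83 FPKM in DMSO replicate 1 and 4.36 and 4.19 FPKM in RDF. With 4 libraries many genes can share such a pattern.

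Markers of other cell types that the cultures could hold were given the same look, since proliferin is also made by fibroblasts and Krt8 and Krt18 by primitive endoderm. All 15 fibroblast markers were above 0 in at least 1 library, and they summed to 50.4 and 51.2 FPKM in DMSO and to 41.5 and 39.6 FPKM in RDF. Of the 10 averaging 1 FPKM or more, limma called 4 lower (Col1a1, Col1a2, Postn and Thy1), against 8.28% of all genes tested, and 2 higher (Dcn and Prrx1), against 13.3%. Postn passed the filter on low values only through its DMSO level and Prrx1 only through its RDF level. Without RDF replicate 1, and likewise without RDF replicate 2, fewer were called higher, as was so over all genes. Col1a1, the main fibrillar collagen chain, had 10.5 and 10.4 FPKM in DMSO and 2.62 and 2.17 FPKM in RDF (log2 fold change -1.76, adjusted p = 0.000577 from limma). Postn, a matrix protein of mesenchyme, had 5.16 and 3.96 FPKM in DMSO and 0.595 and 0.784 FPKM in RDF (log2 fold change -1.71, adjusted p = 0.00164 from limma). Dcn, the matrix proteoglycan decorin, had 1.74 and 1.40 FPKM in DMSO and 6.56 and 7.51 FPKM in RDF (log2 fold change 1.65, adjusted p = 0.00112 from limma). Thy1, a surface protein of fibroblasts, had 11.8 and 13.5 FPKM in DMSO and 7.75 and 7.40 FPKM in RDF (adjusted p = 0.00591 from limma). Twist1, a mesenchymal transcription factor, had 5.67 to 6.70 FPKM over all 4 libraries. The part of fibroblasts in the Prl2c values was not tested.

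The 10 primitive endoderm markers summed to 8.40 and 7.05 FPKM in DMSO and to 11.0 and 11.7 FPKM in RDF. Ttr was at 0 in all 4 libraries, Sox17 lay between 0.480 and 0.817 FPKM, Sox7 between 0.393 and 1.06 FPKM, and 2 of the 10, Gata4 and Gata6, averaged 1 FPKM or more. Both RDF values were above both DMSO values in 5 of the 10 (Gata4, Gata6, Foxa2, Pdgfra and Dab2). They were below them in 2 (Hnf4a and Afp). Over all genes tested the shares were 37.1% and 28.5%, but most of the 10 were under the filter and not tested. Gata4 had 2.76 and 2.73 FPKM in DMSO and 3.31 and 3.37 FPKM in RDF (adjusted p = 0.145 from limma). Gata6, with the values given above, was called higher (log2 fold change 0.78, adjusted p = 0.0428 from limma), a call kept in 2 of the 10 alternatives. The part of primitive endoderm in the keratin values was not tested.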

How the data were processed

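The data were RNA-seq of 4 libraries of HG165 haESCs, 2 with DMSO and 2 with RDF, grouped by their titles. Libraries were made with a stranded mRNA kit. The authors mapped the reads to mm9 with TopHat2 2.0.14 and Bowtie2 2.1.0 and deposited FPKM from Cufflinks 2.2.1, per the submitters' processing notes and the paper's methods. Filters and the treatment of reads that map to several genes are not stated. FPKM hold no counts, so depth was estimated from symbols with 1 long annotated transcript. Each depth was chosen to bring their low values nearest to whole fragments. At these depths between 40.6% and 45.9% of the low values lay within 0.1 of a whole fragment. An even spread would give 20% at a depth fixed beforehand, so the shares are not directly comparable. Fragments of a gene were worked out with its longest transcript and are approximate, and they cover counting error only.

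Genes averaging 1 FPKM or more entered limma 3.58.1 (R 4.3.3) on log2(FPKM + 1), with a mean-variance trend, no replicate block and Benjamini-Hochberg adjustment over 11733 genes at 0.05. A fold change on this scale understates the change of low genes. The smallest two-sided p of an exact permutation test here is 0.333, and none was run. The genes and lists were chosen with earlier results of these data known. All 10 genes were named, with the Prl2c genes, the 3 most abundant genes of each other list and those changed over 2-fold on this scale with an adjusted p under 0.05. Others named from the lists were chosen after their values were seen. Of the listed genes, 1 (Plet1) has no value here. Alternatives were another pseudocount, no filter, 2 scalings, no trend, a replicate block and leaving out each library. Positions and transcripts are from GENCODE on NCBIM37, where Tfap2c is listed as Tcfap2c. Copies elsewhere were sought with blastn at 95% identity over at least 100 bases.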

Additional observations from a re-analysis of the deposited data

How the results depend on the processing

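Each of the 10 alternatives was applied to 57 genes, which gave 570 log2 fold changes. Of these, 495 kept their direction and their side of the threshold, 61 lost the call, 8 gained it and 6 turned direction. For the 8 tested members, 74 of 80 values kept both, 1 lost the call and 4 gained it. The direction turned without RDF replicate 2 for Krt8, Klf5 and Nanog, without DMSO replicate 2 for Esx1 and without RDF replicate 1 for Lgals3 and Rhox9, and their log2 fold changes with each library left out in turn ranged from -0.134 to 0.0041 for Krt8, -0.178 to 0.0661 for Nanog, -0.0203 to 0.120 for Klf5, -0.0266 to 0.159 for Esx1, -0.0524 to 0.132 for Lgals3 and -0.18 to 0.325 for Rhox9. The samples share replicate numbers that no source ties to a shared culture, and the deviations of same-numbered samples had a Pearson r of 0.134 across genes. With the replicate number as a block, 5 members were called higher in place of 3, with Prl2c2 (adjusted p = 0.0163 from limma) and Krt7 (adjusted p = 0.0481 from limma) added, 1 keratin in place of 0 and 2 prolactin-family genes in place of 1. With quantile normalization 1 member, Tead4, was called lower in place of 0. With no filter, 4 other trophoblast regulators were called higher in place of 8 and 1 keratin in place of 0. With no trend 1 embryonic stem cell marker was called higher in place of 2. The count of primitive endoderm markers called higher was 0 in place of 1 with the pseudocount of 0.1, no filter, either scaling or no trend. With each library left out in turn, the calls higher ranged from 2 to 4 for the members, 1 to 6 for other trophoblast regulators, 1 to 2 for placental markers, 1 to 2 for fibroblast markers, 0 to 1 for primitive endoderm markers, 1 to 2 for embryonic stem cell markers, 0 to 0 for keratins and 1 to 2 for the prolactin family. The calls lower ranged from 0 to 0 for the members and other trophoblast regulators, 1 to 2 for placental markers, 3 to 4 for fibroblast markers, 2 to 4 for embryonic stem cell markers and 3 to 5 for keratins. Over all genes the calls higher fell from 1561 to 253 without RDF replicate 2, and the lone library of a condition is then assumed to vary like the other condition. The cause of these moves was not tested. The values of Cdx2 and Elf5 rest on at most 22.0 estimated fragments in a library.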
